A study of Rattus norvegicus with 10 samples.

Results

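Intermediate filaments are the third class of cytoskeletal filament beside actin and microtubules, and each cell type builds them from its own proteins. Keratins fill epithelial cells as paired type I and type II chains, desmin ties the Z-discs of heart muscle to each other and to the cell border, vimentin fills fibroblasts, endothelium and leukocytes, and lamins line the inside of the nuclear envelope. A working ventricular myocyte relies on desmin and lamins, and the keratins of simple epithelia are known there mainly from the covering mesothelium and from fetal or injured tissue.

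The genes described are Krt8, Krt18, Krt19, Krt10, Krt17, Vim, Des, Nes, Lmna and Lmnb1. They were taken as every probe set that the platform annotation assigns to that gene alone, which gave 13 of the 31042 probe sets on the array that are not controls, for all 10 genes. Left ventricular RNA came from male Sprague-Dawley rats of 250 to 300 g, 3 days after gene transfer of GATA-4, a zinc finger transcription factor of the heart (5 arrays), or of LacZ, a bacterial enzyme gene (5 arrays). Both groups thus carry a gene transfer, and a group without one was not analysed here. Groups follow the source label, because the titles name GATA-4 on all 10 arrays. No vehicle, injection site or age of the rats was stated in the labels.

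The values are log2 signals after quantile normalization between arrays, and a level is always that of 1 probe set, since probe sets differ in brightness for the same amount of RNA. A probe set was tested with limma where its mean over the 10 arrays passed 5.17, the 40th percentile. The words rose and fell are kept for an adjusted p under 0.05 over all 18625 probe sets tested, and a fold is 2 to the power of the log2 difference. The genes were chosen by family, with their differences between GATA-4 and LacZ arrays already known, so their differences and adjusted p-values are a description and add no support of their own. The labels count samples and do not say that each came from its own animal, so the p-values measure the spread between these samples, which may be technical.

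GATA-4 array 1 is the dim array below: it had a 2%-trimmed mean signal of 142.3. Arrays 2 to 5 of its group had 249.5 to 328.7 and the LacZ group 249.2 to 313.6. Gata4 itself averaged 11.44 ± 0.14 after GATA-4 transfer and 10.65 ± 0.13 after LacZ transfer on its brighter probe set (SD, n = 5 per group). Its dimmer probe set read 5.24 ± 0.65 and 4.44 ± 1.11, was too dim to be tested, and its groups overlapped. The 11 heart muscle markers had group means of 12.43 to 13.66 with GATA-4 and 12.57 to 13.66 with LacZ. When arrays were only centred on their medians, 322 probe sets were higher and 401 lower with GATA-4, where the main setting gave 566 and 422.

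Of the 13 probe sets 10 were bright enough to be tested, and 3 of them rose and none fell: that of Krt18 and a pair for Lmnb1. Over all probe sets tested, 5.3% were called, 3.04% higher and 2.27% lower. Of these there were 988 in all, but 2849 with the dim array left out and 174 with LacZ array 3 left out, and the count moved by over 1.5 times for every array left out except GATA-4 array 2 and LacZ array 2. In the signals as deposited 9 were called, all higher. By gene, 2 of 8 tested members rose in the main setting, where 3.71% of all genes tested rose. The genes' choice used this contrast, and nothing is read from these shares. The groups did not overlap in the same 3 probe sets, against 8.3% over all probe sets tested. Krt18 and the dimmer of that pair had LacZ means under the filter value and were tested only because they were brighter with GATA-4. The median difference of the 10 tested probe sets was 0.13, beside -0.025 over all those tested. Krt8, Krt19 and another Lmnb1 probe set were too dim to be tested. The plot of signal on each array shows Krt18 and both called Lmnb1 probe sets apart, and overlap elsewhere.

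**Figure D1:**
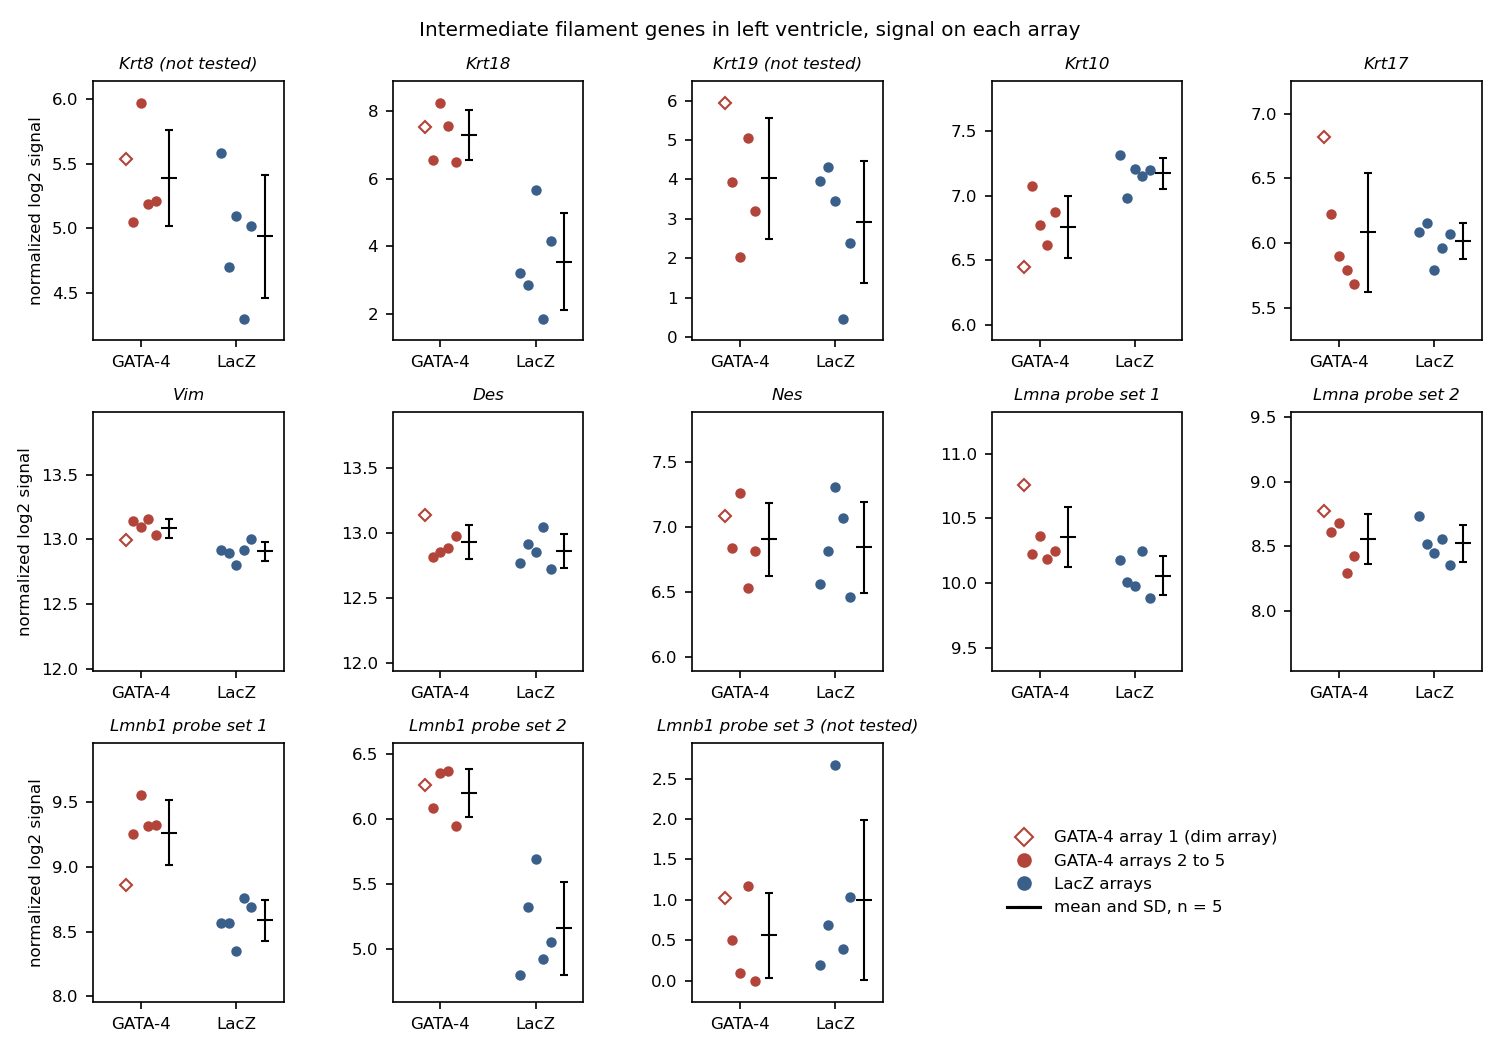
Normalized log2 signal of the 13 probe sets on each array, GATA-4 left and LacZ right, with mean and SD (n = 5), and an open diamond for GATA-4 array 1. The vertical scale differs between panels and does not start at 0. Krt18 lay at 6.51 to 8.24 with GATA-4 and at 1.85 to 5.65 with LacZ, while Des and Nes overlapped throughout.

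Krt18 and Krt8 encode the type I and type II chains that pair in simple epithelia, and Lmnb1 encodes a B-type lamin. The promoters of these genes are shown because Krt18 and Lmnb1 are the members whose calls the results turn on and Krt8 is the partner of Krt18. Each runs 5' to 3' on the gene's strand from 250 bases before to 50 bases after the start, from RefSeq on build GRCr8. Capitals mark matches, on either strand, to the GATA words AGATAA, its variant with a final G (AGATAG), its variant with a leading T (TGATAA) and the variant with both (TGATAG), the AP-1 word TGANTCA, the Sp1 word GGGCGG and the TATA word TATAAA. Krt18 lies at chr7:135035918-135036217 on the plus strand, Krt8 at chr7:135010290-135010589 on the minus strand and Lmnb1 at chr18:52373689-52373988 on the plus strand.
Krt18: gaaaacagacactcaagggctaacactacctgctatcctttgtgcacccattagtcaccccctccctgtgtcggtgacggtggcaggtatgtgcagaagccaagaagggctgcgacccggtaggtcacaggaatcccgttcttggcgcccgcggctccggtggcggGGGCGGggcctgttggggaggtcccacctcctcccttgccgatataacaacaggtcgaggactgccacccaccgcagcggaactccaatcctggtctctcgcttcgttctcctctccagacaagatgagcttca
Krt8: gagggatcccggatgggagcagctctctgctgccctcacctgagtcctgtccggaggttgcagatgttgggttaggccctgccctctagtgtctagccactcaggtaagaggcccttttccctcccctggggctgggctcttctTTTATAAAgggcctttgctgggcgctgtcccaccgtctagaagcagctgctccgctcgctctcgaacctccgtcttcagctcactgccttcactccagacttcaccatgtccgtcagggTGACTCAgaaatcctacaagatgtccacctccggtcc
Lmnb1: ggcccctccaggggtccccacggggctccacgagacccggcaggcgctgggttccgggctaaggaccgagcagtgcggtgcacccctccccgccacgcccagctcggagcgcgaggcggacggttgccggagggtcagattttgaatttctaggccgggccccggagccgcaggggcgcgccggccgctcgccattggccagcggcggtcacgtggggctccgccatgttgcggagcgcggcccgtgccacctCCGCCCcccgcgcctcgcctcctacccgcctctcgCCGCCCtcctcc
Krt8 and Krt18 are neighbours on the chromosome, transcribed away from each other, with starts 25829 bases apart. Neither window holds a GATA word, nor does that of Lmnb1, where 30.3% of all 33469 promoters of the same length hold 1 or more. Of the 8 members with a promoter sequence only Krt10 had such a word, once. Krt8 had 1 AP-1 word, after its start, and a pair of TATA matches that overlap, words that 7.33% and 14.2% of all promoters hold. Krt18 had 1 Sp1 word and Lmnb1 had 2, a word in 33.1% of all promoters. A match is a run of letters, not a bound site.

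Krt18 (probe set 1388155_at) read 7.54, 6.56, 8.24, 7.57 and 6.51 on GATA-4 arrays 1 to 5, against 3.21, 2.86, 5.65, 1.85 and 4.14 on LacZ arrays 1 to 5. Every GATA-4 array, the dim array included, lay above every LacZ array, and LacZ array 3 came nearest. Before normalization these were 98.7 to 389.2 units with GATA-4 and 3.88 to 48.9 with LacZ. The rise was 3.74 on the log2 scale (SE 0.59, limma adjusted p = 0.00714), or 13.4-fold, over LacZ signals that lay on average at the 22.6th percentile of their arrays, against the 64.4th with GATA-4. The size of the fold is therefore approximate: with 16 added to every signal the difference was 2.51, a smaller rise that still passed. Without GATA-4 array 3, Krt18 lay under the filter on low signals and was not tested, which ends its call. In bulk tissue, more cells with a transcript and more transcript per cell cannot be told apart, here and for the genes below.

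Krt8, the type II chain that Krt18 pairs with, did not show a gap of that size. It read 5.54, 5.05, 5.97, 5.18 and 5.21 on GATA-4 arrays 1 to 5, against 5.58, 4.70, 5.09, 4.30 and 5.01 on LacZ arrays 1 to 5. The groups overlapped, since LacZ array 1 read higher than 4 GATA-4 arrays. Its difference was 0.45, and with no filter limma gave an adjusted p of 0.490. Without LacZ array 4 it was 0.29. Signals lay between the 27.8th and 48.8th percentile of their arrays.

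Krt19, another type I keratin of simple epithelia, read 5.94, 3.94, 2.02, 5.06 and 3.20 on GATA-4 arrays 1 to 5, against 3.96, 4.32, 3.46, 0.47 and 2.38 on LacZ arrays 1 to 5. Its groups overlapped widely, with the dim array on top and an SD near 1.5 in each group. The difference of 1.12 had an adjusted p of 0.567 in limma with no filter. It was 0.64 without the dim array and 0.50 without LacZ array 4, within a range of 0.50 to 1.61 over single arrays left out.

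Krt10 and Krt17 are type I keratins of stratified epithelia, the first of the upper epidermis and the second of skin appendages and wounded skin. Krt10 read 6.45, 7.07, 6.78, 6.62 and 6.87 on GATA-4 arrays 1 to 5, against 7.31, 6.98, 7.21, 7.15 and 7.20 on LacZ arrays 1 to 5. Only GATA-4 array 2 and LacZ array 2 crossed. The difference of -0.41 (SE 0.13) did not pass limma's threshold (adjusted p = 0.0914), and over the other settings the adjusted p ran from 0.0562 to 0.993. It was the only tested member with a negative difference. Krt17 read 6.82 on the dim array and 5.68 to 6.22 on GATA-4 arrays 2 to 5, against 5.80 to 6.15 on the LacZ arrays. Its difference of 0.070 (SE 0.21, limma adjusted p = 0.875) was -0.12 without the dim array.

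Among filaments of muscle and mesenchyme, Des, which encodes the desmin of muscle, lay above the 99th percentile of every array and did not separate the groups. It read 13.14, 12.82, 12.85, 12.88 and 12.98 on GATA-4 arrays 1 to 5, against 12.77, 12.91, 12.85, 13.05 and 12.72 on LacZ arrays 1 to 5. The ranges nearly coincide, and the difference was 0.074 (SE 0.073, limma adjusted p = 0.593). It was 0.022 without the dim array, and 0.12 and 0.038 without LacZ arrays 4 and 5. Vim, the vimentin gene of fibroblasts, endothelium and leukocytes, read 12.99, 13.14, 13.09, 13.16 and 13.04 on GATA-4 arrays 1 to 5, against 12.92, 12.89, 12.80, 12.92 and 13.00 on LacZ arrays 1 to 5. Only the dim array and LacZ array 5 crossed. The difference of 0.18 (SE 0.049), or 1.13-fold, stood at an adjusted p of 0.0529 in limma, just outside the threshold. It was inside in 3 of 21 other settings. These were without the dim array (difference 0.19, limma adjusted p = 0.0118), array weights (0.0146) and the filter at the 60th percentile (0.0359). The limma adjusted p was 0.188 with no filter, 0.234 without the intensity trend and 0.672 under median centring. Vim too lay above the 99th percentile of every array. Its difference was 0.0885 in the signals as deposited and 0.0116 once the dim array was dropped and medians were centred.

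Nes encodes nestin, a filament of neural progenitors, regenerating muscle and some endothelium. It read 7.09, 6.84, 7.26, 6.53 and 6.82 on GATA-4 arrays 1 to 5, against 6.56, 6.82, 7.31, 7.07 and 6.46 on LacZ arrays 1 to 5. The groups overlapped over nearly their whole range. The difference was 0.061 (SE 0.19, limma adjusted p = 0.878), and its sign turned when any of 3 single arrays was left out.

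Lmnb1 encodes lamin B1, a farnesylated lamin abundant in dividing cells. Its brightest probe set (1373897_at) read 8.86, 9.26, 9.56, 9.31 and 9.32 on GATA-4 arrays 1 to 5, against 8.57, 8.57, 8.35, 8.76 and 8.69 on LacZ arrays 1 to 5. All GATA-4 arrays lay above all LacZ arrays, with the dim array nearest to LacZ array 4. The rise was 0.67 (SE 0.13, limma adjusted p = 0.0157), or 1.60-fold. It missed the threshold without LacZ array 3 (difference 0.61, adjusted p = 0.0592) and in the signals as deposited (difference 0.63, adjusted p = 0.993), as did the next probe set there (1.03, adjusted p = 0.931).

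The next Lmnb1 probe set (1368811_at) read 6.26, 6.08, 6.36, 6.37 and 5.94 on GATA-4 arrays 1 to 5, against 4.80, 5.32, 5.69, 4.92 and 5.05 on LacZ arrays 1 to 5. Again no array crossed, and here the dim array stood among the others. The rise was 1.05 (SE 0.20, limma adjusted p = 0.0147), or 2.07-fold, and 0.79 with 16 added to every signal. The third (1368812_at) read 0.56 ± 0.53 after GATA-4 transfer and 1.00 ± 0.98 after LacZ (SD, 5 arrays each), between the 0.757th and 14.2th percentile of its arrays, and was too near the floor to be read. Which transcripts each probe set reads was not examined here.

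Lmna encodes lamins A and C, the lamins of differentiated cells such as myocytes. Its brighter probe set read 10.75, 10.22, 10.36, 10.18 and 10.25 on GATA-4 arrays 1 to 5, against 10.18, 10.00, 9.98, 10.24 and 9.88 on LacZ arrays 1 to 5. The dim array was highest and LacZ array 4 lay within the GATA-4 values. The difference of 0.30 (SE 0.12) had an adjusted p of 0.158 in limma. Without the dim array it was 0.20, and 0.14 when medians were then centred. The dimmer probe set differed by 0.035 (SE 0.12, adjusted p = 0.891 in limma), and so did not repeat that gap. A test of Lmnb1 against Lmna was not made.

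Other genes of the family and its partners were looked at through lists drawn up by family and function. None of 3 tested other keratins was called, and none had an unadjusted p under 0.05 in limma. Krt24 differed by -0.43 (SE 0.26) and Krt20 by 0.11 (SE 0.19), with adjusted p-values of 0.345 and 0.784 in limma. Another 17 keratins, Krt5, Krt7 and Krt14 among them, were too dim to be tested, with group means of 2.10 to 5.02 with GATA-4 and 2.28 to 5.19 with LacZ.

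None of 34 tested genes in 3 further lists was called in limma, where 6.37% of all genes were, and 6 had an unadjusted p under 0.05. The list of other intermediate filaments had 6 tested genes and a median difference of 0.17, beside -0.017 over all genes tested. Its other 6 genes were too dim to be tested, with differences from -0.061 to 1.94. Nefh was the highest, and Iffo2 differed by 1.39, with adjusted p-values of 0.233 and 0.141 in limma with no filter. The mean deviation over all 12 genes was 0.074 to 0.50 on GATA-4 arrays and -0.51 to -0.031 on LacZ arrays. Over the 6 tested genes the groups overlapped. Lmnb2, the other B-type lamin, differed by 0.54 (SE 0.18, adjusted p = 0.0981), and Synm, whose product synemin binds desmin, by 0.031 (SE 0.19, adjusted p = 0.943, both limma). Iffo1, a nuclear filament protein, differed by 0.28 (SE 0.12, limma adjusted p = 0.185).

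Linkers and desmosome genes had 13 tested members with a median of -0.078. Pkp1, a desmosome plaque protein of stratified epithelia, read 5.97 ± 0.28 after GATA-4 transfer and 4.65 ± 0.98 after LacZ (SD, 5 arrays each). The Pkp1 difference of 1.32 (SE 0.39) did not pass (limma adjusted p = 0.0696). Its LacZ mean lay under the filter value, so, like Krt18, Pkp1 was tested only because it was brighter with GATA-4. Pkp4, a related plaque protein, differed by -0.18 (SE 0.095, limma adjusted p = 0.279). Partners of the nuclear lamina had 15 tested members with a median of 0.043 and a range of -0.27 to 0.27. Narf, which binds the tail of prelamin A, differed by -0.27 and Syne2, a nesprin of the outer nuclear membrane, by -0.26, with limma adjusted p-values of 0.129 and 0.178.

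**Figure D2:**
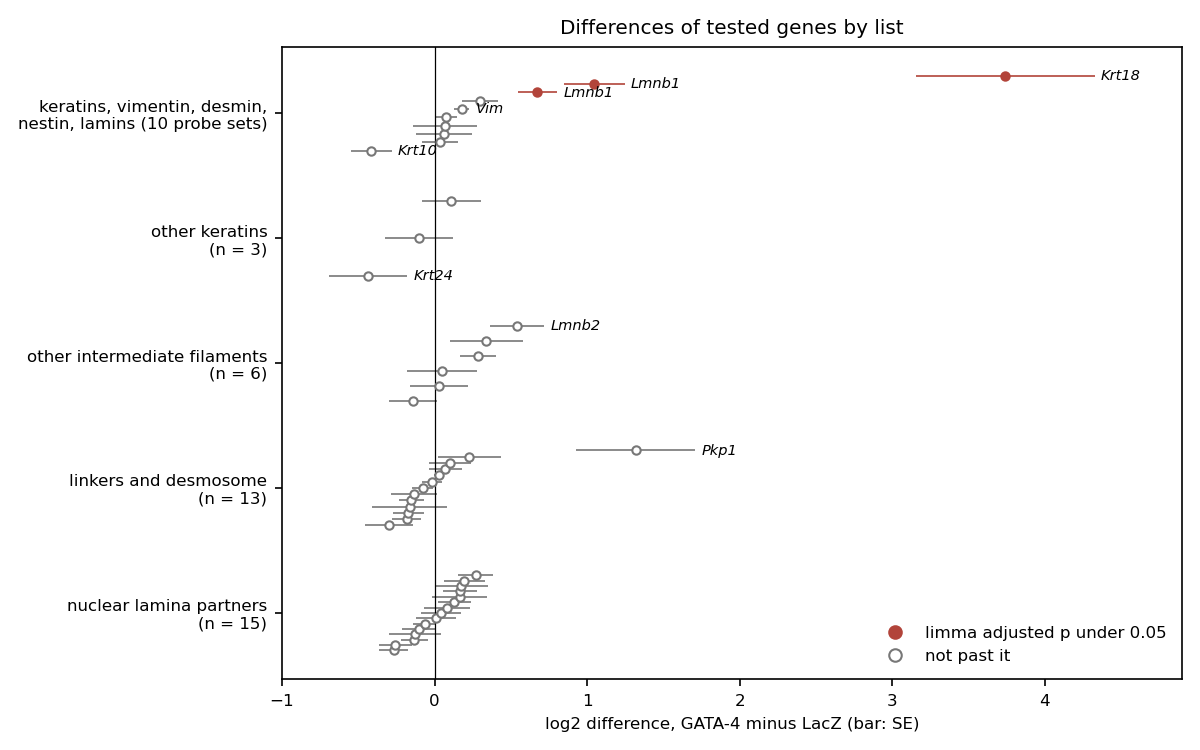
Log2 difference, GATA-4 minus LacZ, with its SE, for each tested probe set of the 10 genes and each tested gene of the 4 lists. Filled points passed limma's threshold: Krt18 at 3.74 and Lmnb1 at 1.05 and 0.67, while none of the 37 list genes did.

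Markers of other cells were read beside Krt18 and Lmnb1. Of 16 epithelial and mesothelial markers on the array 13 were too dim to be tested, with GATA-4 means of 1.16 to 5.26 and LacZ means of 0.71 to 5.18, and no gene of the list stood at 0 on every array. None of the 3 tested was called in limma, with 1 at an unadjusted p under 0.05: Wt1, a transcription factor of mesothelium and epicardium, differed by -0.51 (SE 0.17, adjusted p = 0.108) and Ocln, a tight junction protein, by 0.28 (SE 0.19, adjusted p = 0.416). The mean deviation of all 16 genes from their own means came to -0.068 for the dim array. It came to 0.26 to 0.38 for GATA-4 arrays 2 to 5 and -0.49 to -0.039 for LacZ arrays. Over the 3 tested genes alone the groups overlapped. That mean was -0.73 for the dim array, 0.020 to 0.19 for GATA-4 arrays 2 to 5, and 0.010 to 0.14 for LacZ arrays.

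Cdh1, the adhesion molecule E-cadherin of epithelia, was picked out after its values were seen. It read 4.26, 4.91, 5.29, 5.58 and 5.40 on GATA-4 arrays 1 to 5, against 1.74, 3.98, 0.98, 2.52 and 1.69 on LacZ arrays 1 to 5. The groups did not overlap, all values were dim, and with no filter limma gave the difference of 2.90 an adjusted p of 0.0205. A second Cdh1 probe set differed by -0.14 (limma adjusted p = 0.948 with no filter). Epcam, another epithelial adhesion molecule also looked at afterwards, read 5.26 ± 0.69 after GATA-4 transfer and 3.97 ± 1.47 after LacZ (SD, 5 arrays each; adjusted p = 0.339 in limma with no filter). The 13 untested genes of that list did not go 1 way, with differences from -0.41 for Esrp1 to 2.90 for Cdh1. Cldn4 differed by 1.87, while Spint1, Cldn3 and Elf3 differed by -0.24, -0.055 and -0.034. The part of epithelial or mesothelial cells in the rise of Krt18 was not tested.

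Over all genes tested 3.71% rose. Of 12 cell division genes 4 rose and none fell, Cdk1, Mki67, Top2a and Kif20a, by 0.94, 0.79, 0.56 and 0.69. The mean deviation over the list came to -0.24 for the dim array and 0.25 to 0.59 for GATA-4 arrays 2 to 5, against -0.45 to -0.15 with LacZ. By this mean the dim array lay among the LacZ arrays. For each of the 4 called genes it lay above all of them, as for both called Lmnb1 probe sets. Calls favour genes whose groups lie apart, so nothing is read from this. Of the uncalled genes, the dim array lay below all LacZ arrays for Ccna2 and Bub1 (6.23 each) and above them for Cdc20 (7.55). It read 8.09 for Cdk1 and 7.78 for Mki67, where the highest LacZ arrays read 7.73 and 7.70. Beside the same 3.71%, 5 of 10 macrophage and monocyte genes rose and none fell. They were Tyrobp, Csf1r, Cd14, Cd68 and Mrc1, by 1.24, 0.54, 0.86, 0.69 and 0.60. That list stood at -0.00070 for the dim array and at 0.30 to 0.55 for GATA-4 arrays 2 to 5, against -0.57 to -0.19 with LacZ. The part of dividing cells or macrophages in the Lmnb1 and Vim values was not tested.

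The remaining cell type lists had no called gene, where 6.37% of all genes tested were called. These were 11 cardiomyocyte, 9 endothelial, 10 fibroblast, 10 smooth muscle and pericyte, and 2 Schwann cell and glial genes tested in limma, of which 1, 2, 2, 1 and 0 had an unadjusted p under 0.05. Their median differences were -0.013, -0.071, -0.066, 0.0042 and -0.24. The genes with the smallest p were Tnnc1 and Ryr2 (-0.084 and -0.14), Cldn5 and Tek (-0.36 and -0.23), Col1a1 and Col1a2 (0.26 and 0.29), Mcam and Tagln (0.40 and 0.30), and Mbp and Sox10 (-0.38 and -0.092).

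**Figure D3:**
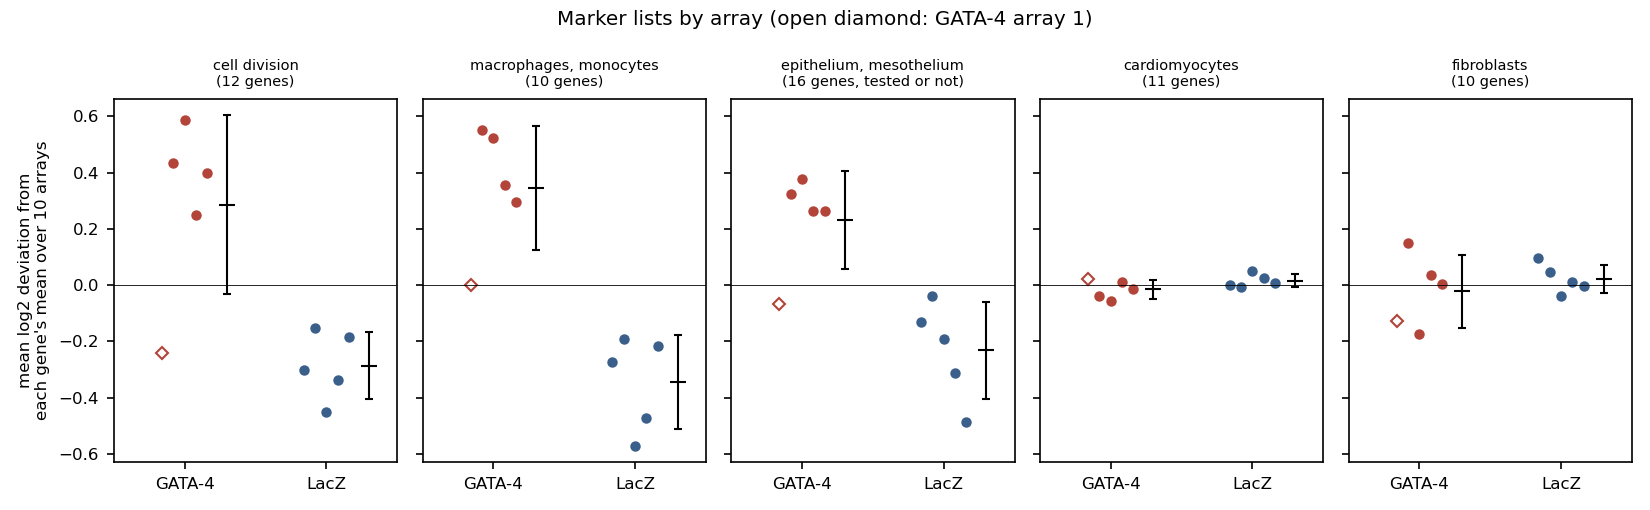
Mean log2 deviation of 5 marker lists on each array, GATA-4 left and LacZ right, with mean and SD (n = 5). On GATA-4 array 1, the open diamond, cell division stood at -0.24, within the LacZ arrays, while the other GATA-4 arrays stood at 0.25 to 0.59.

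How the members vary together inside a group was read from each array's deviation from its group mean, which takes the group difference out. These are descriptions over 10 arrays, and dim probe sets of an array share its background. Krt8 and Krt18, the filament pair, had a Pearson r of 0.60 (Spearman rho 0.67), and 0.73 without LacZ array 3. Both Lmna probe sets followed each other (r = 0.77). The 2 called Lmnb1 probe sets did not (r = -0.34, and 0.00012 without LacZ array 3). The dimmer one instead went with Krt18 (r = 0.76) and with the Lmnb1 probe set near the floor (r = 0.82), and these were 0.47 and 0.55 without LacZ array 3, which was highest of its group in all 3. Des and the brighter Lmna probe set had r = 0.73, with the dim array highest of its group in both. That r was not computed without the dim array. Vim and Nes had r = -0.70, and -0.55 without LacZ array 3. The dim Krt19 and the brighter Lmnb1 probe set had r = -0.77 (Spearman rho -0.88).

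**Figure D4:**
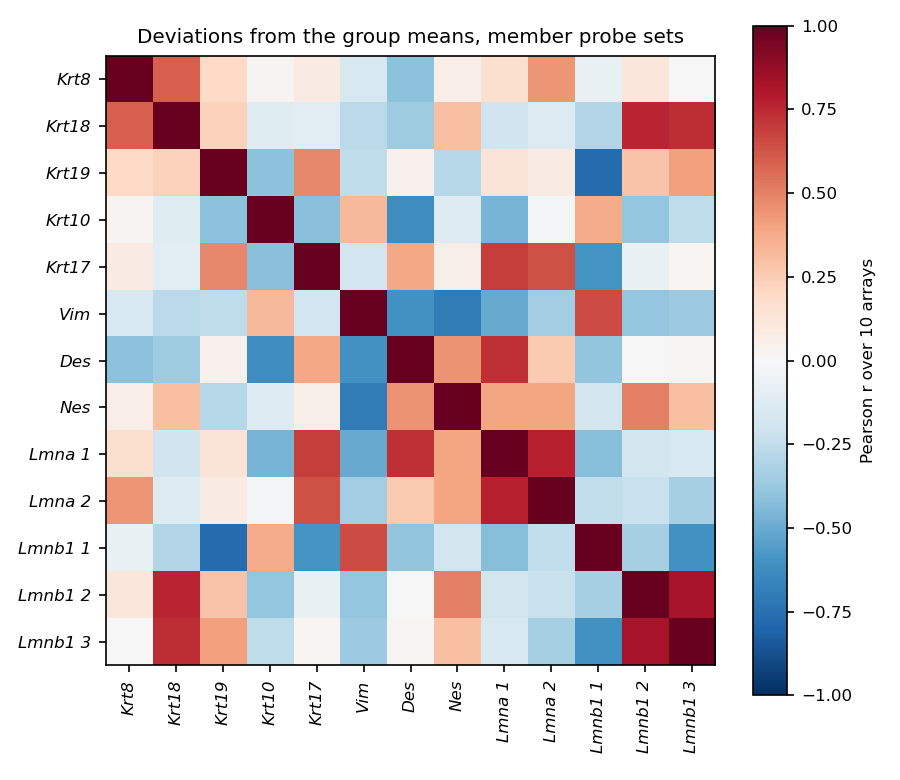
Pearson r over 10 arrays between member probe sets, after each group's mean was taken out, from -1 in blue to 1 in red. Numbers after Lmna and Lmnb1 order their probe sets from bright to dim. Krt8 with Krt18 stood at 0.60 and the 2 called Lmnb1 probe sets at -0.34.

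By the same measure the tested probe sets most like Krt18, among 14330 assigned to 1 other gene, were those of Hic2, Ankrd13c, Srgap2, Zfp420 and Stard4, with r from 0.87 to 0.91. For Krt8 they were Anapc15, Mrps12, Lgals1, Cxhxorf38 and Zfx (0.86 to 0.97), and for Krt19 Tcof1, Ceacam1, Dpyd, Thbd and Fli1 (0.91 to 0.96). The 3 keratins shared none of these genes, and none of the 15 passed limma's threshold between groups. These are the highest of many values over few arrays.

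**Figure D5:**
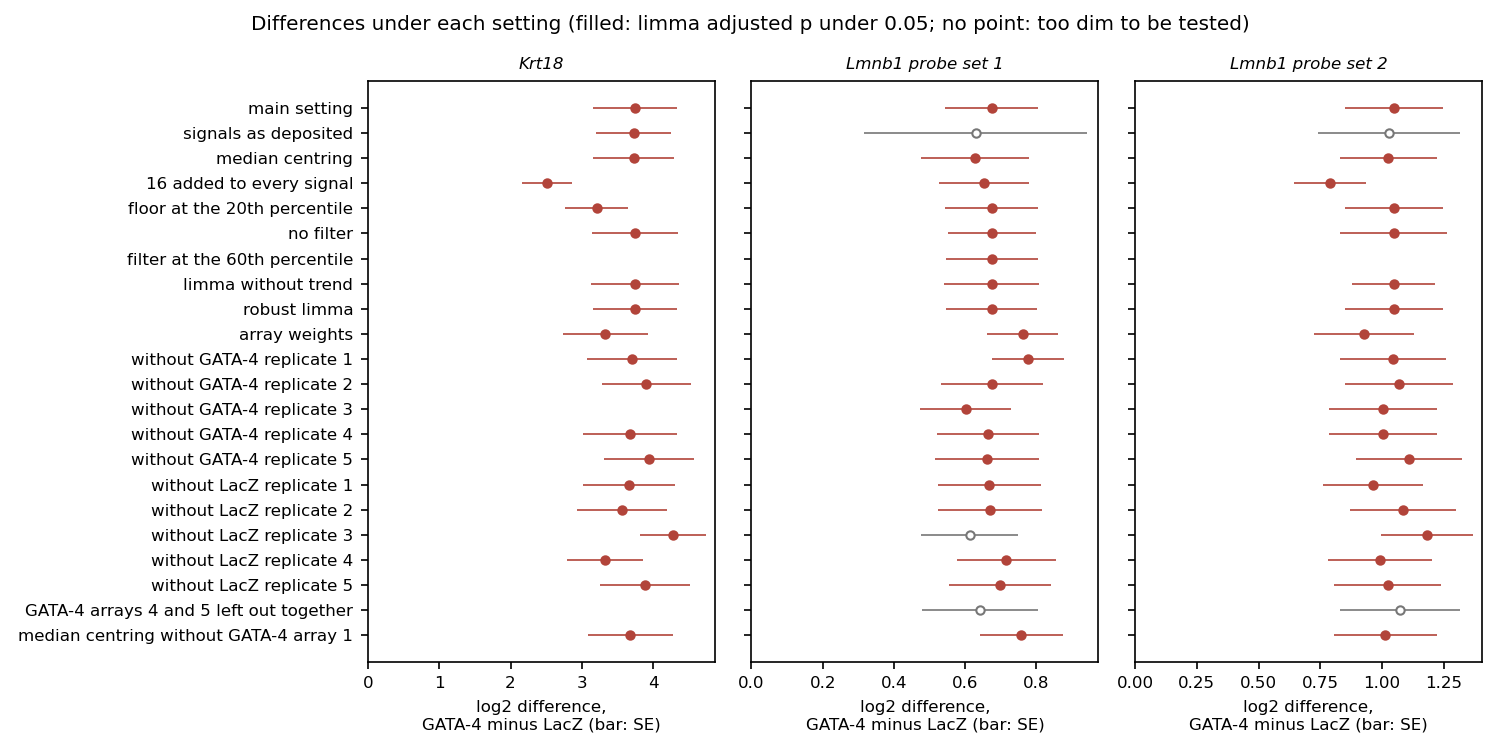
Log2 difference with SE of Krt18 and of both called Lmnb1 probe sets under the main setting and each alternative that tested them, which leaves out 3 of 21 for Krt18 and 1 for the dimmer Lmnb1 probe set. Where tested, differences lay between 2.51 and 4.27 for Krt18, 0.60 and 0.78 for the brighter and 0.79 and 1.18 for the dimmer Lmnb1 probe set, and open points missed limma's threshold.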

How the data were processed

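Expression was measured on Affymetrix rat arrays. The authors deposited 1 table of probe set intensity values on a linear scale, made with GCOS per the submitters' processing notes; no source here states its version, summary method or scaling, and detection calls were not used. Gene names came from the platform annotation and were brought up to date through RefSeq gene IDs (GRCr8; 20758 of 20826 single-gene probe sets matched). Groups came from the source label, since every title names GATA-4. Log2 values of the probe sets that are not controls were quantile normalized, floored at 0 and, above the 40th percentile of mean signal, fitted with limma 3.58.1 (intensity trend, no covariates) in R 4.3.3, with Benjamini-Hochberg adjustment over 18625 probe sets. Lists use each gene's brightest probe set. The fit was also run on simulated data with independent normal noise and no array effects. That run cannot show how the fit handles a dim array. Array weights used statmod 1.5.0. The number of arrays limits the precision.

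The genes, lists and alternatives were chosen with earlier results of these data known. The genes named are all members, Gata4, from each other list the called genes (at most 6 with the smallest p) or otherwise the 2 with the smallest p, and the 5 probe sets most like each of Krt8, Krt18 and Krt19. Others named were chosen after their values were seen. Alternatives covered normalization, an added constant, the floor, the filter, the variance model, array weights and leaving out arrays.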

Additional observations from a re-analysis of the deposited data

Results flagged for a closer look

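Among 134 groups of 5 values looked at, 6 held an array far from the others; chance flags about 1 in 20 groups. None was a value of the 10 genes. The mean deviation of the epithelial and mesothelial list on GATA-4 array 1 was -0.73 over its 3 tested genes and -0.068 over all 16, below the other GATA-4 arrays. Cldn5 read 8.24 and Cd14 9.64 on LacZ array 5, and Mcam read 8.77 on GATA-4 array 2. The 2 tested Schwann cell and glial markers stood at 0.50 on LacZ array 1.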

How the results depend on the processing

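Of the 13 probe sets 10 were tested, and 3 of those were called. The count was 1 in the signals as deposited, where Krt18 alone passed, and 0 with GATA-4 arrays 4 and 5 left out together. It ran from 2 to 4 when single arrays were left out. Calls over all probe sets tested moved as well. They numbered 988 in the main setting, 9 as deposited, 201 without that pair and 174 to 2849 without single arrays. Nothing about the members is read from these counts. Krt18 was too dim to be tested with that pair left out, without GATA-4 array 3 alone, and with the filter at the 60th percentile. Krt18 passed in all 18 of 21 settings that tested it (adjusted p 0.00257 to 0.0256 in limma), and each Lmnb1 probe set in 18, of 21 and 20. With no filter their adjusted p-values were 0.0130 for Krt18 and 0.0215 and 0.0327 for Lmnb1. Array weights, with 2890 calls in all, called 1 other keratin, Krt24, lower with GATA-4. Adding 16, with 1011 calls in all, called 1 partner gene, Pkp1, whose LacZ mean lay under the filter value in the main setting. Leaving out single arrays called 0 of either. Signs turned for small differences: Krt17 was -0.14 with array weights, -0.12 under median centring without GATA-4 array 1, and -0.12 to 0.17 with single arrays left out; Des was -0.14 under that centring; Nes was -0.012 with array weights and -0.034 to 0.18 with single arrays left out; the dimmer Lmna probe set was -0.026, -0.022 and -0.019 to 0.10 under the same 3. The cause was not tested. No paired analysis was possible because the labels give the groups no shared replicate numbers.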
